A study of Homo sapiens with 36 samples.

Results

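The line labelled RAI1 knockout (KO) was followed from day 3 to day 7 of neuron induction: 8 libraries, 4 from day 3 and 4 from day 7, of the 36 in the series. They were chosen by their titles, which give genotype, day and replicate. The cells were of the human embryonic stem cell line H9, and doxycycline switched on NGN2, the protein encoded by NEUROG2. All lines were kept in mTeSR Plus on Geltrex, received the ROCK inhibitor Y-27632 when plated, and differentiated in Neurobasal-A with GlutaMAX, B27, GDNF, NT3 and CultureOne. The lines labelled wild type (WT) and HET (heterozygous for the RAI1 mutation), sampled on days 0, 3 and 7 with 4 replicates each, serve as comparisons, as do the 4 KO libraries of day 0. The days on which doxycycline was present are not given in the labels. Nor is it stated whether a genotype is a single clone, so a difference between lines cannot be told apart from a difference between clones. The labels call the replicates biological but do not say how their cultures were separated, so each p-value measures the spread between these libraries.

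NGN2 is a proneural basic helix-loop-helix factor that drives stem cells straight into a neuronal programme: cells leave the cell cycle, pass through a short phase in which Notch ligands and proneural factors are high, and then build axons, synapses and ion channels. RAI1 encodes a nucleosome-binding chromatin regulator, and is the gene affected in Smith-Magenis syndrome.

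The 8 libraries held 33.3 to 45.7 M counts. Replicates correlated across genes, on log2 normalised CPM (counts scaled to a common library total by TMM), with r of 0.973 to 0.989 at day 3 and 0.988 to 0.996 at day 7. A set of 5 structural RNAs (RMRP, RPPH1, RN7SK and both RN7SL genes), called small structural RNAs below, took 4.92%, 3.54%, 14.9% and 18.8% of the day 3 libraries, and 9.90% to 15.8% at day 7. Day 3 replicates 1 and 2 therefore stood apart from replicates 3 and 4, and counts were repeated with either pair alone. The shares of small structural RNAs, of mitochondrially encoded transcripts and of the 100 most counted genes, and the number of genes at 1 CPM or more, overlapped between the days (exact two-sided permutation tests, 4 against 4, p = 0.629, 0.2, 0.371 and 0.743; all adjusted p = 0.743; the smallest p possible is 0.0286).

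RAI1 itself (ENSG00000108557, chromosome 17, 17681473 to 17811453 in GRCh38, GENCODE 29) was at 76.5, 107, 65.6 and 37.9 CPM in the day 3 libraries and at 88.3, 95.7, 90.9 and 63.9 at day 7. The groups overlapped, and the log2 difference of 0.29 ± 0.28 (SE) had an adjusted p of 0.42. In the WT line RAI1 averaged 58.7 ± 17.4 CPM at day 3 and 52.4 ± 15.3 at day 7 (SD, n = 4). In the HET line it averaged 68.3 ± 20.8 and 73.3 ± 15.7 CPM. The KO mean was above the WT mean on both days (71.8 and 84.7 CPM in KO), with overlapping libraries. A difference in RAI1 level between the lines was not tested, and the place of the mutation is not given in the sources used here. The gene overlaps 4 others in the annotation.

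Almost as many genes changed as did not. Of 22059 genes tested, 10555 (47.8%) differed between the days at an adjusted p under 0.05 in edgeR's quasi-likelihood test. Higher at day 7 were 5358 genes (24.3%) and lower were 5197 (23.6%). The counts of list members below are to be read beside these shares. The median log2 difference was 1.31 among genes that rose and -1.23 among those that fell. A test against a change of 1 log2 unit kept 2081 rises (9.43%) and 1807 falls (8.19%). With day 3 replicates 3 and 4 alone 11008 genes were called, and with replicates 1 and 2 alone 10739. On the authors' TPM values, tested with limma as log2(TPM + 1), 4496 genes were called, and 34.5% of those calls were rises against 50.8% in the count test; with log2(TPM + 0.1) 5466 were called and 33.5% were rises. Over all genes tested, the median log2 difference was -0.01 in the count test, -0.13 when libraries were scaled by total counts and -0.17 on log2(TPM + 1).

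NEUROG2, the induced factor (chromosome 4, 112513516 to 112516172) was at 8667, 7867, 8241 and 11005 CPM in the day 3 libraries and at 30.7, 20.8, 19.5 and 27.1 at day 7, against a mean of 1.87 at day 0. No day 7 library came near a day 3 library. The drop of 8.47 ± 0.26 log2 units (adjusted p = 7.5e-10) was accompanied in the WT line by a change of -8.45, from 22332 to 63.9 CPM (difference between the lines -0.06, adjusted p = 0.95). Counts of the transgene and of the gene's own locus cannot be told apart in these values.

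**Figure D1:**
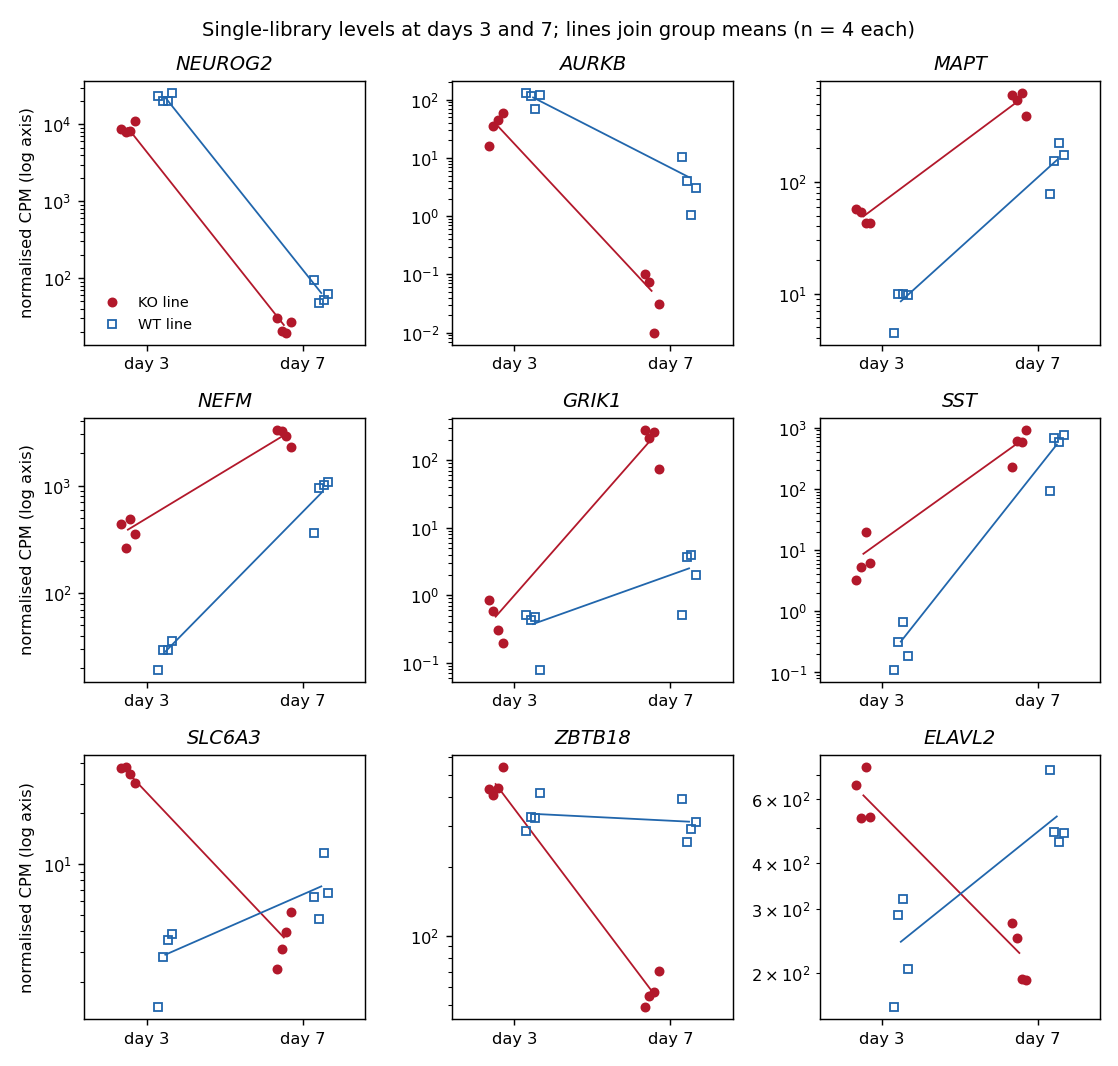
Normalised CPM (log axis) of 9 genes in every library of the KO line (filled circles) and the WT line (open squares) at days 3 and 7; lines join group means and a value of 0 is drawn at 0.01. NEUROG2 fell by 8.47 log2 units in KO, whereas SLC6A3 and ELAVL2 fell in KO and were higher at day 7 in WT.

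All 30 genes of the mitosis list fell, with a median log2 difference of -5.67. For each of them every day 7 library lay below every day 3 library; among all genes tested 21.9% were separated in this way. Their summed level went from 1238 to 2995 CPM in the day 3 libraries to 58.95 to 72.56 at day 7. In bulk RNA such a fall cannot be split into fewer dividing cells and less RNA per cell. AURKB, the kinase of the chromosomal passenger complex (chromosome 17, 8204733 to 8210600), was at 16.3, 35.4, 44.6 and 58.9 CPM at day 3 and at 0.103, 0.0746, 0 and 0.0315 at day 7, a difference of -9.35 ± 0.53 log2 units (adjusted p = 1.8e-08). Its day 7 libraries were close to no counts. PTTG1, the securin that holds separase in check, fell from 53 ± 31 to 2.59 ± 0.996 CPM. The smallest fall of the list was that of the spindle kinase AURKA (-2.90). KO fell further than WT for 21 of the 30 genes in the test of the difference between the lines. Of all genes tested for this difference, 10.9% had a lower change in KO and 7.6% a higher one. On log2(TPM + 1), where values near 0 are compressed, none of the 30 passed that test.

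Genes of this list are known for a shared promoter arrangement: a CHR element, bound by the MuvB complex, near a CCAAT box, bound by NF-Y. Within 250 bases before the RefSeq start (GRCh38.p14), a CHR (searched as TTTGAA, as its reverse complement TTCAAA and as the palindrome TTCGAA) occurred in 13 of the 25 list members that have a promoter in the table (52.0%), against 10.4% of the 13497 tested genes that have one. A CCAAT box (CCAAT on either strand) occurred in 20 of the 25 (80.0%), against 34.5%. The CCAAT share was also above 34.5% for DNA replication (62.5%), proneural (58.8%) and Notch genes (50%). It was below for presynaptic (20%), adhesion (28.6%) and channel genes (22.9%). The CHR share was 11.2% of 3470 promoters of genes that fell and 10.1% of 3636 of genes that rose. Among changes of at least 4 log2 units it was 22.9% of 266 for falls and 14.0% of 307 for rises. Among other lists it was 8.33% for DNA replication, 17.9% for neuronal adhesion and 20% for voltage-gated channels. These are letter matches and not measured binding. The last 150 bases before the start of 4 members with both motifs are shown because they hold both motifs at differing distances, each 5′ to 3′ on the gene's strand with the motif letters in capitals; the windows are chr1:43358831-43358980, chr15:59104996-59105145, chr16:23678739-23678888 and chr2:26785906-26786055, all on the plus strand.
CDC20: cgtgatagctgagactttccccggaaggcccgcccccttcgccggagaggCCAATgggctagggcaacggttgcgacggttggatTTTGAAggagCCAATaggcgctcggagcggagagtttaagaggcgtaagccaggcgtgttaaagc
CCNB2: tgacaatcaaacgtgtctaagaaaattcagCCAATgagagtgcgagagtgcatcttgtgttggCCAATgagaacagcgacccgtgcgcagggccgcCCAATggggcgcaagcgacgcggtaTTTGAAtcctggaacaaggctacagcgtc
PLK1: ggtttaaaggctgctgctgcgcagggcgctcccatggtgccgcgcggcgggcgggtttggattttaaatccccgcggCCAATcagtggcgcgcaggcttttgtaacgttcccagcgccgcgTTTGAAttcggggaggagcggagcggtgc
CENPA: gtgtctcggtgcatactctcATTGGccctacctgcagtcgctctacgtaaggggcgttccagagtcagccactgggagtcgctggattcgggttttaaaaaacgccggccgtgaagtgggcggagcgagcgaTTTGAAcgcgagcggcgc
The 4 genes were picked for their motifs after their values were known. CDC20, the activator of the anaphase-promoting complex, had a log2 difference of -8.51, cyclin B2 (CCNB2) of -7.37, the mitotic kinase PLK1 of -5.40 and the centromeric histone CENPA of -8.02. In CDC20 the CHR starts 65 bases before the gene's start and in CCNB2 and PLK1 29 bases before it. In CENPA it starts 18 bases before, and the only CCAAT match of the window, on the opposite strand, lies far from it, 130 bases before the start.

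DNA replication genes fell less far than mitotic ones. Of 28, 26 fell and none rose (median -1.81). CDC45, a helicase component, went from 6.25, 12.7, 15.5 and 9.76 CPM to 0.0771, 0.0249, 0.0274 and 0 (-8.17 ± 0.44), whereas MCM7, a subunit of the same helicase, went from 129 ± 26.4 to 63.5 ± 5.94 (-0.97 ± 0.14). The 2 genes that did not pass were CCNE1 (-0.01) and CHAF1B (-0.49). For 13 of the 28 the KO fall was smaller than the WT fall and for 3, including CDC45, it was larger. Of all genes tested for this difference, 7.6% had a higher change in KO and 10.9% a lower one. The 3 larger falls are thus near the share of all genes. On log2(TPM + 1) 1 difference passed. In the joint list of cell cycle exit and p53 genes, which were not counted apart, 20 of 29 fell and 2 rose (median -1.14). The 2 that rose are inhibitors of cyclin-dependent kinases: CDKN2D, from 8.84, 8.72, 16.9 and 19.8 CPM to 49, 45.9, 44.1 and 42.8 (1.78 ± 0.25), and CDKN1C, from 86.9 ± 28.1 to 245 ± 68 (1.53 ± 0.28). A further inhibitor, CDKN2C, fell from 6.49 ± 2.14 to 0.0678 ± 0.0135 (-6.46 ± 0.54).

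**Figure D2:**
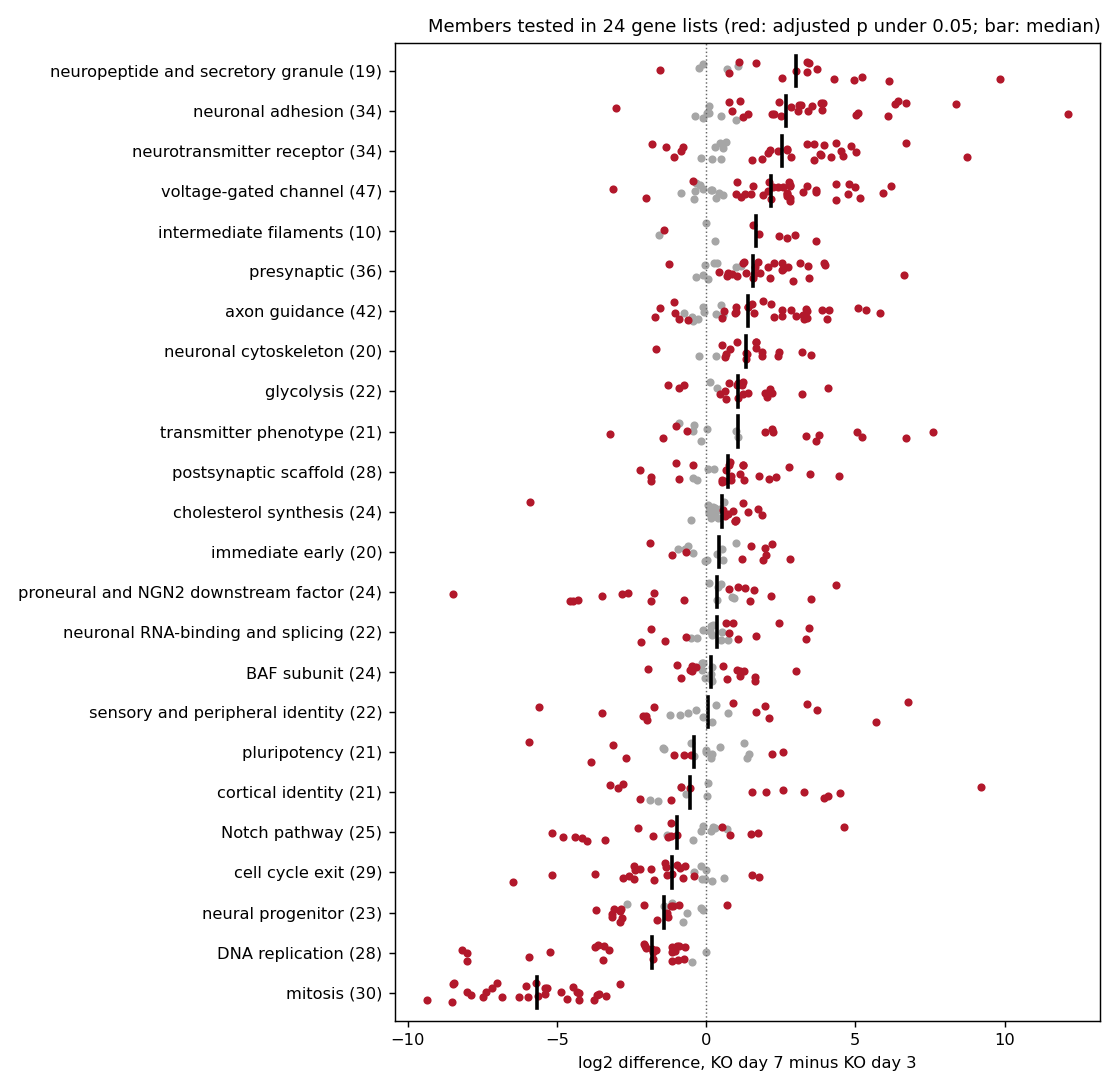
Log2 difference, KO day 7 minus KO day 3, of each gene tested in the 24 gene lists (number tested in brackets); red points have an adjusted p under 0.05, grey points do not, and the bar is the list's median. Mitosis genes lie between -9.35 and -2.90, while the medians of the neuropeptide, adhesion, receptor and channel lists lie above 2. Over the alternatives the lowest medians of these lists were 1.72, 1.01, 0.38 and 0.64. The cell cycle exit list also holds p53 genes.

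The neuronal cytoskeleton rose. Of its 20 genes 17 rose and 1 fell, with a median log2 difference of 1.35. MAPT, which encodes the axonal microtubule-binding protein tau, was at 56.9, 54.2, 43.4 and 42.6 CPM at day 3 and at 602, 546, 628 and 391 at day 7 (3.51 ± 0.21, adjusted p = 2.5e-08). TUBA1A, an alpha-tubulin of young neurons and the list's most abundant member by TPM, went from 5432 ± 1790 to 10855 ± 1077 CPM (1.04 ± 0.24, adjusted p = 0.0029). MAP1A, a microtubule-associated protein, was the exception, falling from 1270 ± 263 to 379 ± 41.9 CPM. TUBB3, the neuronal beta-tubulin, averaged 2495 and 3030 CPM and did not pass (0.32). On log2(TPM + 1) 8 of the 20 rose.

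Among the 10 intermediate filament genes 6 rose and 1 fell. NEFM, the medium neurofilament subunit, was at 444, 262, 495 and 358 CPM and then at 3290, 3251, 2920 and 2311 (2.96 ± 0.31, adjusted p = 4e-06). NEFL, INA and PRPH also rose, by 2.71, 2.45 and 1.78. The remaining pair that rose, KRT8 (1.56) and KRT18 (3.66), encodes keratins of simple epithelia, and KRT18 stayed below 1 CPM on both days. At KO day 0 KRT8 and KRT18 averaged 210 and 166 CPM. NES, the filament of neural progenitors, fell from 732 ± 166 to 267 ± 98 CPM. Every day 7 library lay above every day 3 library for NEFM, and below for NES.

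Neuronal RNA-binding proteins split. Of 22 genes, 8 rose and 4 fell (3 and 3 on log2(TPM + 1)), beside 24.3% and 23.6% of all genes. CELF4, a splicing and translation regulator, rose from 10.7 ± 1.44 to 112 ± 21.5 CPM. ELAVL2, a neuronal Hu protein, was at 654, 532, 733 and 536 CPM and then at 274, 249, 193 and 192 (-1.39 ± 0.25, adjusted p = 0.00047), with no overlap. PTBP1 and QKI, which hold back neuronal splicing in non-neural cells, fell by 1.86 and 2.18. In WT ELAVL2 was higher at day 7 than at day 3 (1.14), and the difference between the lines was -2.58 (adjusted p = 9.2e-05).

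Genes of the presynaptic terminal rose in 27 of 36 cases and fell in 1 (median 1.57). SYT4, a vesicle synaptotagmin, went from 145, 80.7, 96.8 and 48.4 CPM to 892, 908, 815 and 541 (3.13 ± 0.34, adjusted p = 5.2e-06). NRXN3, a presynaptic neurexin, went from 0.215 ± 0.089 to 20.8 ± 5.85 CPM (6.62 ± 0.32). CPLX1, a complexin that clamps vesicle fusion, fell from 99 ± 19.3 to 40.5 ± 1.26. SYP, STX1A and SYT7 did not pass, at -0.06, -0.12 and 0.06. On log2(TPM + 1) 17 of the 36 rose.

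On the postsynaptic side 18 of 28 scaffold and adhesion genes rose and 6 fell (median 0.72); on log2(TPM + 1) 5 rose. NLGN3, a neuroligin, went from 1.7, 1.74, 1.68 and 2.08 CPM to 45.3, 36.7, 46.2 and 23.8 (4.45 ± 0.24). Its mean at KO day 0 was 37.7 CPM. The kinase CAMK2A (3.46) and the scaffolds SHANK1 (2.77) and SHANK2 (2.11) rose, while SHANK3 (-0.45), BAIAP2 (-1.85) and HOMER3 (-1.83) fell. SHANK2 averaged 55.8 CPM at KO day 0 and 54.9 at day 7. CAMK2A and SHANK1 had higher means at day 7 than at day 0. LRRTM3, a synapse-organising membrane protein, fell from 36 ± 15.2 to 7.59 ± 4.31 CPM. DLG4, which encodes PSD-95, was at 263 ± 67.7 and 382 ± 45.1 with overlapping libraries (0.58, adjusted p = 0.013). The call was lost in 6 alternatives, among them the one without day 3 replicate 3 (0.46).

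Receptors, from -1.81 to 8.75, showed a wider spread than the presynaptic and postsynaptic lists. Of 34 tested, 22 rose and 5 fell (median 2.55), and on log2(TPM + 1) 12 rose and 2 fell; GABRB1 and GABRG1 were among those too low to test. GRIK1, a kainate receptor subunit, stood at 0.838, 0.586, 0.308 and 0.198 CPM at day 3 and at 277, 209, 258 and 74.1 at day 7 (8.75 ± 0.55, adjusted p = 3.6e-08). The AMPA receptor subunits GRIA2 (3.84), GRIA4 (3.80) and GRIA1 (3.60) rose. So did the NMDA receptor subunits GRIN2A (3.39), GRIN2B (2.40) and GRIN1 (1.88), the first 2 of them from below 1 CPM. GRIN2A and GRIN2B averaged 13.7 and 19.3 CPM at KO day 0, above their day 7 means of 8.86 and 3.89. GRIA1, GRIA2, GRIA4 and GRIN1 had higher means at day 7 than at day 0. GRIN2D, a further NMDA receptor subunit, was at 78.0 ± 13.8 and 66.8 ± 10.7 CPM and did not pass (-0.18), while in WT it rose by 3.46 (difference between the lines -3.69, adjusted p = 3.9e-07). The AMPA receptor subunit GRIA3 did not pass either (0.58). The 5 that fell were the nicotinic subunits CHRNA3, CHRNB4 and CHRNA7 and the glutamate receptors GRIK2 and GRM2. CHRNA3 was at 44.8, 87, 63.6 and 49.8 CPM and then at 9.84, 22.6, 19.5 and 15.2 (-1.81 ± 0.26).

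Voltage-gated channels rose in 33 of 47 cases and fell in 3 (median 2.19). Over the alternatives 23 to 35 rose, with medians from 0.64 to 2.29. SCN2A, a sodium channel of immature axons, went from 1.1, 0.803, 0.587 and 0.198 CPM to 60.4, 50.3, 57.5 and 24.4 (6.20 ± 0.45, adjusted p = 1.2e-07). The sodium channel SCN9A (4.36), the calcium channel CACNA1C (2.81) and the potassium channel KCND3 (4.36) were among the rises. Among the falls were CACNA1G, a T-type calcium channel, and SCN8A, a sodium channel.

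Transmitter genes did not move as one class. Of 21 tested, 10 rose and 4 fell (8 to 13 and 1 to 5 over the alternatives). The vesicular glutamate transporter SLC17A6 rose by 5.23, from 9.45 to 342 CPM, while its relative SLC17A7 fell from 304, 198, 253 and 303 CPM to 130, 126, 124 and 127 (-1.02 ± 0.17, adjusted p = 0.00024). Among genes of inhibitory neurons GAD2 rose from 0.0368 to 7.63 CPM and SLC32A1 from 0.322 to 4.29, while GAD1 did not pass (1.01). CHAT, the acetylcholine-synthesising enzyme, and SLC6A3, the dopamine transporter, fell, the latter from 37.2, 37.6, 34.4 and 30.3 CPM to 2.39, 3.13, 3.95 and 5.19. In the WT line SLC6A3 was higher at day 7 than at day 3 (1.35), and the lines differed by -4.60 (adjusted p = 5.3e-07).

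Neuropeptide and secretory granule genes had the highest list median, 3.02, with 14 of 19 tested genes higher and 1 lower. Over the alternatives 10 to 17 were higher. Of the 28 listed, 9 were too low to test, among them NPY, VIP and CCK. PENK, which encodes the enkephalin precursor, was at 0.0479, 0.0651, 0.112 and 0.618 CPM and then at 175, 121, 197 and 275 (9.86 ± 0.63, adjusted p = 4.3e-08). Its counts in the WT line were 0 on both days. SST, the somatostatin precursor, went from 3.23, 5.3, 20.1 and 6.18 CPM to 229, 617, 579 and 911 (6.11 ± 0.59). The processing enzymes PCSK1 (3.39) and PCSK2 (3.02) rose as well. SCG2, a granin, fell from 62.8 ± 26.2 to 20.6 ± 7.85 CPM.

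Surface molecules of axons rose broadly. Of 34 neuronal adhesion genes 26 rose and 1 fell (median 2.67), and over the alternatives 20 to 28 rose. OPCML, a GPI-anchored adhesion molecule of the IgLON family, had 0.0718, 0.0434, 0.0839 and 0 CPM at day 3 and 356, 190, 249 and 116 at day 7 (12.14 ± 0.56, adjusted p = 4.4e-09); 6 annotated genes overlap its locus. NCAM1 went from 707 ± 162 to 1598 ± 217 CPM (1.23 ± 0.19). Contactins differed: CNTN4 rose by 3.90 and CNTN2 by 3.88, CNTN3 was at 0.58 CPM on both days, and CNTN6 fell from 18.1 ± 10.4 to 2.14 ± 0.459.

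Of 42 axon guidance genes 27 rose and 6 fell (18 to 27 and 1 to 7 over the alternatives). ROBO3, a Slit receptor family member of commissural axons, was at 2.59, 2.21, 1.93 and 3.53 CPM and then at 24.4, 105, 182 and 255 (5.82 ± 0.57). Its day 7 libraries spread widely, with replicate 1 lowest. The Slit ligands SLIT3 (4.11), SLIT1 (3.29) and SLIT2 (2.54) rose, as did the receptors ROBO2 (3.00) and DCC (1.42). NTN1, the DCC ligand netrin-1, fell from 7.79 ± 2.41 to 2.56 ± 0.95 CPM. ROBO1 went from 931 ± 94.8 to 1314 ± 117, a rise of 0.55 that did not pass on TPM or in the fit of all 36 libraries.

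In the list of proneural and NGN2 downstream factors 8 of 24 rose and 10 fell; the median of 0.37 was -0.04 on log2(TPM + 1). The falls included NEUROD2 (-4.58), HES6 (-4.47), NEUROD4 (-4.28), CBFA2T2 (-3.49), NEUROD1 (-2.81) and NHLH1 (-2.62), most of them basic helix-loop-helix factors or their partners. ONECUT3, a homeobox factor, was at 26.8, 19.8, 14.2 and 4.89 CPM and then at 353, 362, 352 and 236 (4.36 ± 0.50). ONECUT1 (2.18), EBF3 (1.60) and EBF1 (1.06) also rose. For 17 of the 24 the KO change was lower than the WT change (10.9% of all genes), and for none was it higher (7.6% of all genes). On log2(TPM + 1) it was lower for 9. NEUROD1 is an example, at -2.81 in KO and 4.36 in WT.

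Notch signalling works between neighbours: a committed cell shows a Delta or Jagged ligand, and the receiving cell turns on HES and HEY repressors. Of 25 pathway genes 12 fell and 5 rose (median -0.99). Among the ligands, DLL3 was at 1423, 1336, 1452 and 1841 CPM and then at 64.2, 93.1, 82.7 and 126 (-4.01 ± 0.38, adjusted p = 1.6e-06). DLL4 (-4.79) and DLL1 (-1.28) fell too, whereas JAG1 and JAG2 did not pass (0.16 and -0.11). The receptors NOTCH2 (-4.41), NOTCH1 (-4.17) and NOTCH3 (-1.80) fell. So did the fringe genes MFNG (-3.39) and LFNG (-2.27), which modify the receptors. Among targets HEYL fell from 41.6 ± 9.65 to 1.14 ± 0.476 CPM (-5.15 ± 0.31), HEY1 rose by 1.51, and HES1 stayed below 1 CPM. DNER, a Delta-like membrane protein of neurons, rose from 20.9 ± 2.19 to 495 ± 120 CPM. The KO change was lower than the WT change for 15 of the 25 (10.9% of all genes). It was higher for 2, near the 7.6% of all genes. On log2(TPM + 1) it was lower for 2.

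Progenitor genes fell in 15 of 23 cases and rose in 1 (median -1.42). PAX3 went from 8.14, 17.6, 18 and 13.3 CPM to 0.539, 1.47, 1.78 and 0.409 (-3.70 ± 0.62). The SOX factors SOX1 (-3.15), SOX2 (-2.87) and SOX9 (-2.85) fell. CDH2, the cadherin that progenitors and neurons share, was at 222 ± 57.1 and 346 ± 68.3 CPM with overlapping libraries (0.70, adjusted p = 0.032), and that call was lost in 11 alternatives. Of 21 pluripotency genes 7 fell and 2 rose; 9 of the 22 listed were at 1 CPM or more at day 3. DPPA4 fell from 62.9, 61.4, 57.9 and 53.8 CPM to 4.14, 5.52, 4.44 and 12.6, and POU5F1 from 2.33 to 0.034.

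Identity factors of peripheral and cortical neurons moved in both directions. Of 22 sensory and peripheral factors 8 rose and 6 fell (of all genes 24.3% and 23.6%). The list median of 0.04 changed sign with the scaling. NTRK2, the BDNF receptor, rose from 0.123 ± 0.14 to 13.4 ± 9.91 CPM, against a mean of 17.3 at KO day 0. The GDNF receptor RET rose by 5.67. GATA2 fell from 13.1 ± 9.55 to 0.268 ± 0.271 CPM. Of 21 cortical factors 8 rose and 7 fell, beside the same shares of all genes. LMO3, a LIM-only cofactor, had 0.479, 0.13, 0.224 and 0.124 CPM and then 287, 84.8, 116 and 60.6 (9.19 ± 0.60). ZBTB18, a repressor needed in cortical neurons, fell from 437, 410, 441 and 541 CPM to 49.1, 54.7, 56.8 and 70.3 (-2.94 ± 0.17, adjusted p = 2e-08). TBR1 was among those too low to test. POU3F4 fell from 57.9 ± 18.9 to 6.1 ± 3.32 CPM, and its WT libraries had no counts.

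Of 22 glycolysis genes 17 rose and 3 fell (median 1.07). ENO2, the neuronal enolase, was at 25.8, 40.8, 47.8 and 74.6 CPM and then at 794, 727, 878 and 740 (4.10 ± 0.28, adjusted p = 8.1e-08). GAPDH went from 734, 900, 1632 and 1698 CPM to 2790, 2435, 2868 and 2048 (1.07 ± 0.25, adjusted p = 0.0032). Its mean at KO day 0 was 2402 CPM. The 2 lower day 3 values belong to the libraries with the low share of small structural RNAs. HK2, PDK1, LDHA and PGK1 rose by 2.13, 2.02, 1.23 and 1.22. The transporter SLC16A1, which carries lactate and pyruvate, fell from 169 ± 30.1 to 67 ± 26.6. Of 24 cholesterol synthesis genes 11 rose and 1 fell (median 0.52). HMGCS1, an early enzyme of the mevalonate pathway, was at 343, 178, 367 and 228 CPM and then at 1203, 1139, 912 and 739 (1.88 ± 0.24). On log2(TPM + 1) 6 glycolysis and 3 cholesterol genes rose.

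The WT medians of the glycolysis and cholesterol lists were -0.35 and -0.40. The KO change was above the WT change for 9 of 22 glycolysis genes and below it for none, and for 11 of 24 cholesterol genes it was above and for 1 below. Among all genes tested for this difference 7.6% were above and 10.9% below. On log2(TPM + 1) 2 glycolysis genes and no cholesterol gene passed; the list medians of the difference there were 0.99 and 0.94, against 0.97 and 0.96 in the count test.

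Immediate early genes, which neuronal activity and stress induce, rose in 7 of 20 cases and fell in 3 (median 0.44; 3 and 1 on log2(TPM + 1)). FOSL2 rose from 2.8, 7.47, 3.94 and 6.47 CPM to 28.9, 43.5, 31 and 37.1, EGR1 and FOS rose by 2.21 and 1.90 from below 1 CPM, and ARC fell by 1.15. Of 24 subunits of the BAF chromatin remodelling complex 9 rose and 7 fell (of all genes 24.3% and 23.6%), and on log2(TPM + 1) 1 rose and 3 fell. Progenitor forms of this complex hold ACTL6A and SS18 and neuronal forms ACTL6B, SS18L1, DPF1 and DPF3. ACTL6B, SS18L1, DPF1 and DPF3 rose by 1.12, 0.69, 1.14 and 1.63, ACTL6A fell by 0.83, and SS18 did not pass (-0.12). SMARCD3 went from 5.75, 5.1, 4.19 and 5.07 CPM to 43.4, 45.3, 48.6 and 20.9, and its relative SMARCD2 from 106 ± 14.9 to 26.9 ± 4.22.

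Markers of other cell types were also read. Of 12 glial markers tested 6 rose and 3 fell, with a summed level of 402 to 457 CPM at day 3 and 493 to 542 at day 7; SLC1A2 rose from 231 to 348 CPM and OLIG1 and OLIG2 rose too, GJA1, PDGFRA and CSPG4 fell, GFAP averaged under 1 CPM, and AQP4 and ALDH1L1 were too low to test. Neural crest and mesenchyme markers fell in 6 of 11 cases and rose in 2, and their sum went from a range of 86.6 to 302 CPM to one of 12.4 to 22.7; COL1A1 went from 92.4 to 0.413, while TFAP2A and FOXD3 rose. Endoderm and mesoderm markers summed to 0.862 to 1.26 CPM at day 3 and 0.199 to 0.668 at day 7, with 6 and 5 of 13 at 0. Endothelial, blood and epithelial markers summed to 2.99 to 8.98 and 0.411 to 2.3, with 5 and 4 of 13 at 0. Whether cells of these kinds had a part in the changes above was not tested.

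The 8 largest rises among protein-coding genes at 5 CPM or more included several that day 3 libraries lacked. OR6K3, an olfactory receptor gene, had no count at day 3 and 26.9, 10.5, 28.1 and 4.09 CPM at day 7, at least 236-fold higher when 3 counts per library are taken as the floor. SCML4, a Polycomb-like protein gene, was likewise at 0 and then at 21.8, 10.4, 20.7 and 6.61 CPM (at least 202-fold higher), and AGTR2, the type 2 angiotensin receptor gene, at 0 and then at 9.43, 5.07, 5.7 and 2.71 (at least 77.7-fold higher). OPCML, PENK, BRINP3, OR5A1 and IRS4 completed the group. IRS4, an insulin receptor substrate on the X chromosome, had a mean of 19.5 CPM at day 0, 0.0447 at day 3 and 32.9 at day 7. In the largest falls, H3C8 and H3C2 encode replication-dependent histones, whose near-identical copies make their counts uncertain, E2F2 drives S phase, and PBK, AURKB and PIMREG act in mitosis. The other 2 were CAV3, the muscle caveolin (26.4 ± 17.8 to 0.00787 ± 0.0157 CPM), and TSPAN8, a tetraspanin (8.68 ± 2.32 to 0.00685 ± 0.0137).

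The WT line passed through the same days with changes of similar number. In WT 10284 of 22268 genes (46.2%) were called, and in HET 8955 of 21715 (41.2%). Of the 6297 genes called in both KO and WT, 5741 moved in the same direction, which is 54.4% of the KO calls and 55.8% of the WT calls. Across 21128 genes the KO and WT log2 differences correlated with r = 0.613, as a description, since genes are not replicates. The change itself differed between KO and WT for 4588 of 24764 genes (18.5%) and between KO and HET for 564 (2.28%; 0.662% higher and 1.62% lower in KO). Without KO day 3 replicate 1 the KO and HET changes differed for 267 genes and without HET day 7 replicate 3 for 900, so that number rests on single libraries; the other libraries that move it by more than 1.5 times are KO day 7 replicates 1, 2 and 3 (298, 319 and 307), KO day 3 replicate 4 (874) and HET day 3 replicate 1 (368).

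**Figure D3:**
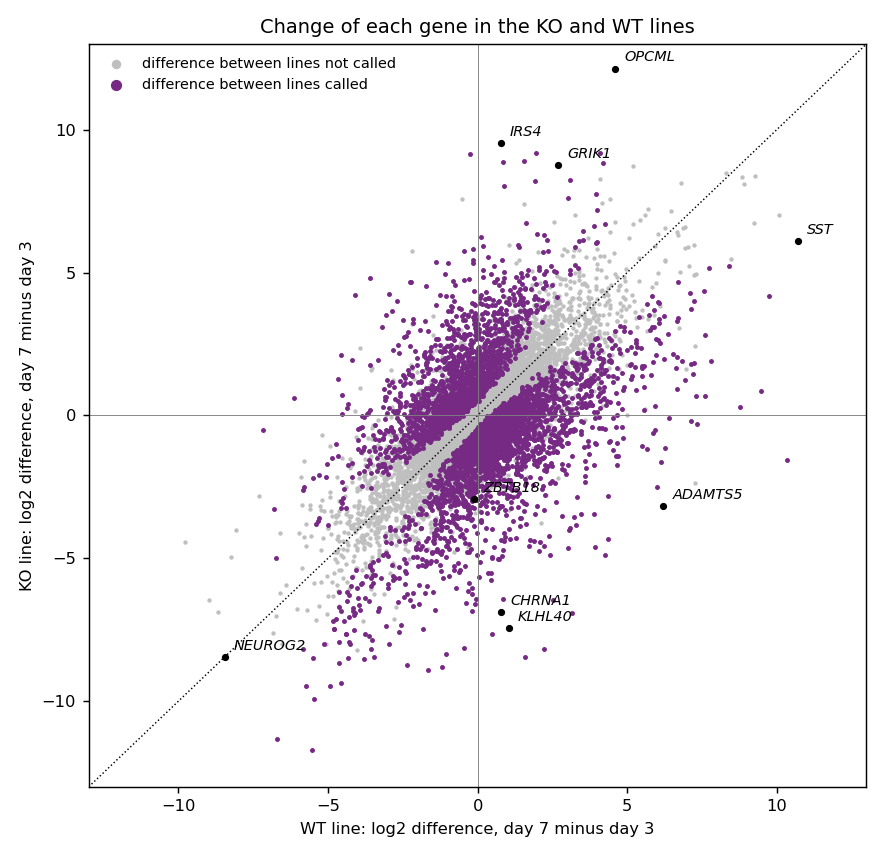
Log2 difference, day 7 minus day 3, of each gene in the WT line (horizontal) and the KO line (vertical); purple points have an adjusted p under 0.05 for the difference between the lines, and the dotted line marks equal change. NEUROG2 lies on the line, ADAMTS5 fell in KO and rose in WT, and KLHL40 and CHRNA1 fell in KO with WT differences of 1.05 and 0.79 that did not pass (adjusted p = 0.069 and 0.085).

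Of the 4415 genes with such a difference that were also tested in KO alone, 353 fell in KO and rose in WT and 203 rose in KO and fell in WT. Another 398 fell in both lines, further in KO. The largest negative differences at 5 CPM or more were those of TBC1D3G (-10.08), ADAMTS5 (-9.41), LRRC53 (-8.74), KLHL40 (-8.54) and CHRNA1 (-7.73). ADAMTS5, an aggrecan-cleaving protease, was at 28.4, 7.27, 9.4 and 6.82 CPM in KO at day 3 and at 2.59, 1.02, 0.96 and 1.01 at day 7, while the WT means went from 0.268 to 19.8. CHRNA1, the muscle nicotinic receptor subunit, went from 47.5, 72.2, 105 and 87.7 CPM to 1.13, 0.547, 0.384 and 0.441 in KO. Its WT means were 19.3 and 33.4, with overlapping libraries, and that difference did not pass (0.79, adjusted p = 0.085). TBC1D3G belongs to a family of near-identical copies, so its counts are uncertain. The largest positive differences among genes called were those of SLC24A4 (9.35), IRS4 (8.68), OR5A1 (8.27), HES3 (8.01) and OPCML (7.49). OR6K3 (12.37) and PENK (9.82) had no WT count at day 3 or 7. Their SE values of 71384 and 34136 kept them from being called. HES3 averaged 8.31 CPM in KO at day 0, 0.0122 at day 3 and 7.09 at day 7. SLC24A4, a potassium-dependent sodium and calcium exchanger, rose from 0.0486 ± 0.0177 to 28.6 ± 17 CPM in KO and was at 0.0413 and 0.0328 in WT. In HET, SLC24A4 (6.72), IRS4 (6.21), HES3 (4.94) and OPCML (10.04) rose as well, and for none of these 4 did the KO and HET changes differ past the threshold. Among the 5 negative ones the KO change was below the HET change for TBC1D3G (-7.07), ADAMTS5 (-5.14) and CHRNA1 (-2.76).

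**Figure D4:**
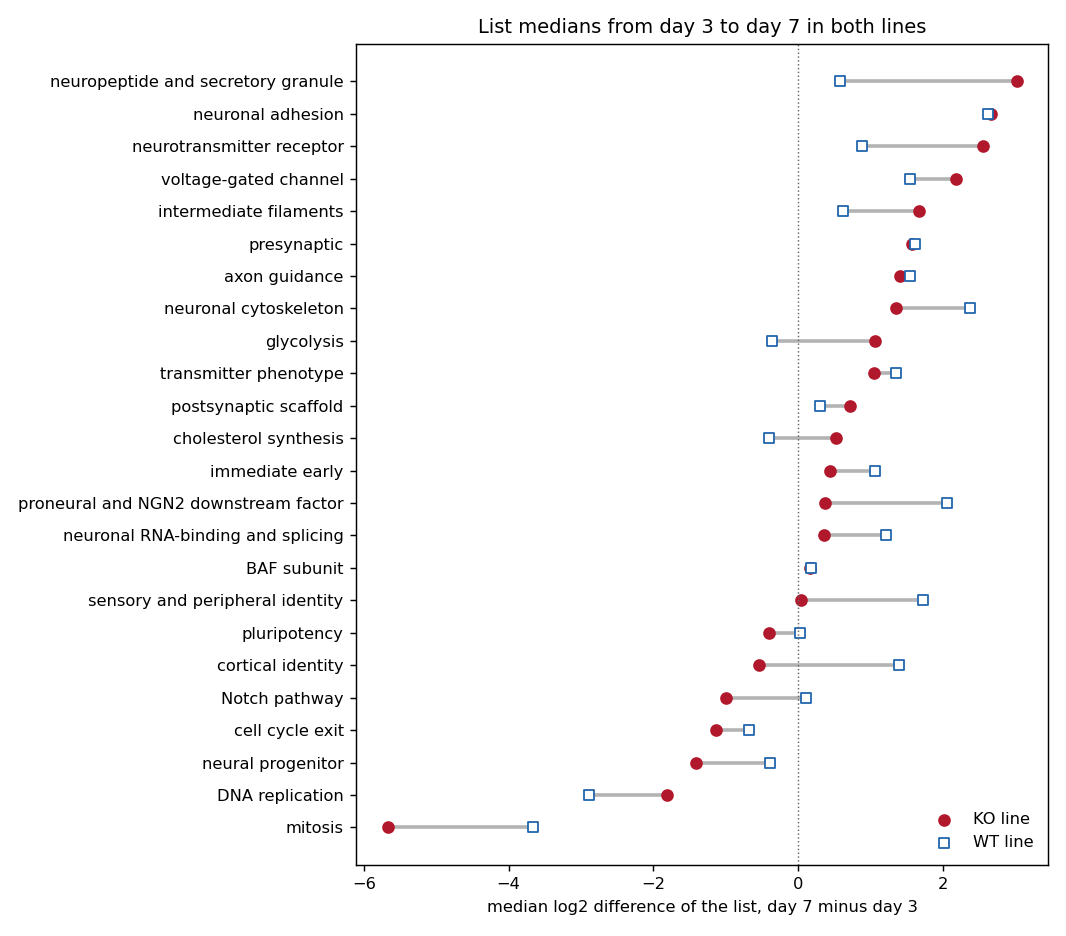
Median log2 difference, day 7 minus day 3, of the 24 gene lists in the KO line (filled circles) and the WT line (open squares). The mitosis median was lower in KO (-5.67) than in WT (-3.66), and the proneural median was 0.37 in KO and 2.05 in WT. The cell cycle exit list also holds p53 genes.

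The lists set KO and WT apart in different ways. Presynaptic (1.57 and 1.62) and adhesion genes (2.67 and 2.63) had nearly equal medians, but members differed in both directions. The KO change was above the WT change for 6 of 36 presynaptic genes and below it for 8. For the 34 adhesion genes the counts were 7 and 9. Among all genes tested for this difference 7.6% were above and 10.9% below. Over the alternatives the lowest counts were 1 and 3 for presynaptic genes and 6 and 3 for adhesion genes. Cytoskeleton genes had medians of 1.35 in KO and 2.37 in WT, with 9 of 20 members lower and 1 higher in the test of the difference, and none on log2(TPM + 1). MAPT was at 49.3 CPM in KO and 8.54 in WT at day 3, and at 541 and 157 at day 7. Receptors had medians of 2.55 and 0.88, with 9 of 34 members above and 6 below. GRIK1 reached 205 CPM in KO and 2.5 in WT (difference of the changes 6.01, adjusted p = 7.1e-05).

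A larger share of long than of short genes rose. Of 760 protein-coding genes that span 300 kb or more in the annotation, 403 rose and 148 fell, and their median log2 difference was 0.74 in KO and 0.62 in WT. Of the 4897 that span 30 to 100 kb, 24.6% rose and 29.2% fell. The part of gene length in the list medians was not tested.

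**Figure D5:**
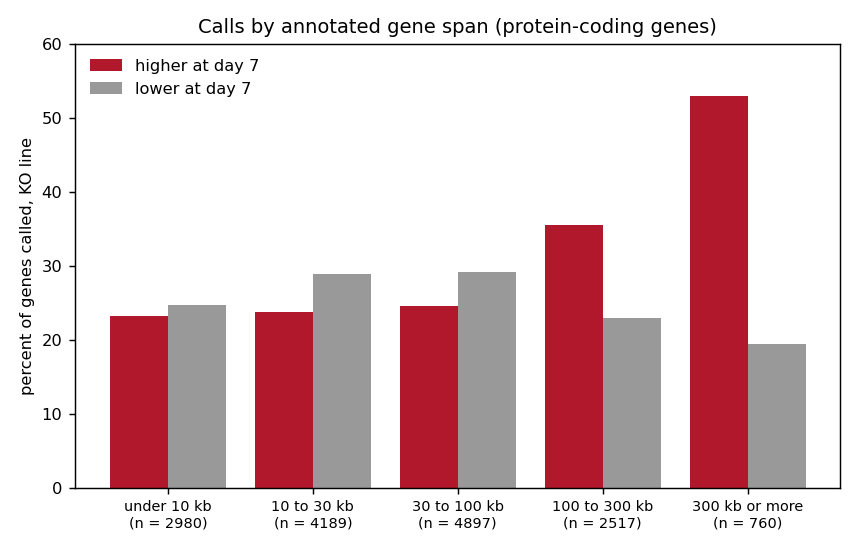
Percent of tested protein-coding genes called higher (red) and lower (grey) at day 7 in the KO line, by annotated gene span. The share that rose is 23.2% under 10 kb and 35.6% from 100 to 300 kb, and is highest at 300 kb or more.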

How the data were processed

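Total RNA, depleted of ribosomal RNA, was sequenced as 151 bp paired-end reads, and all libraries carried the same batch label, per the labels. Tables of expected counts (all whole numbers) and of TPM, deposited by the authors, were used. The submitters' processing notes name cutadapt 4.8, FastQC 0.11.8, MultiQC 1.20, STAR 2.7.8a, RSEM 1.3.3 and GRCh38, without their roles; the annotation and the use of strand are not given in the sources used here, so overlapping and antisense genes may share counts. The table held 62714 features; 4 reporter sequences were left out, and 58274 of 62710 genes (92.9%) matched GENCODE 29, which gave positions.

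The expected counts were tested in R 4.3.3 by edgeR 4.0.16 on the 12 KO libraries (contrast day 7 minus day 3), with its quasi-likelihood F test after TMM scaling and its default expression filter by group, Benjamini-Hochberg adjustment over all genes tested and a threshold of 0.05. Differences between lines were interaction terms over all 36 libraries. SE values are the absolute log2 difference divided by the root of F. Normalised CPM use TMM effective library sizes. Alternatives were DESeq2 1.42.0, limma 3.58.1 on log2(TPM + 1) and log2(TPM + 0.1), other scalings, filters, library sets, a fold threshold, a small structural RNA covariate, a replicate block and leaving out each replicate; repeats by small structural RNA share, or without those 5 RNAs, were added after seeing the data. Scripts were tested on simulated counts.

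Named genes were RAI1, the 8 largest rises and falls, the largest rise, largest fall and highest mean TPM of each list, and the 5 largest differences from WT each way, among called protein-coding genes with a unique symbol, 5 CPM or more in the higher group and, except for the differences from WT and the highest TPM, no overlap; other genes are given as list members. Some genes that these rules or lists hold are not reported here by name; counts and medians include them. The members, lists (24 pathway lists, 4 marker lists) and rules were chosen with earlier results of these data known. Depth was 33.3 to 45.7 M counts per library; floors of 3 counts cover counting error only. Promoter sequences are RefSeq's.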

Additional observations from a re-analysis of the deposited data

Results flagged for a closer look

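The change from day 3 to day 7 differed between KO and WT for 4588 genes and between KO and HET for 564. Of 82 named genes, 47 differed between KO and WT. Values are log2 units, KO change minus WT change, with adjusted p under 0.05 in edgeR's interaction test. PENK, OR6K3 and POU3F4 had no WT count at days 3 and 7, and their SE values were too large for a call. Of these 47, 8 also differed between KO and HET (LRRTM3, SLC6A3, ZBTB18, DPPA4, CDKN2C, TBC1D3G, ADAMTS5 and CHRNA1), and 35 were called in HET in the direction of KO. Most were named for the size of their KO change, which favours the sign of the difference from WT. Among such genes, cell-cycle genes had AURKB at -4.85, H3C8 -6.22, H3C2 -4.57, E2F2 -4.54, PIMREG -4.07, PBK -3.79, CDC45 -2.38 and CDKN2C -4.26; in HET, PBK (-9.44), E2F2 (-9.16) and H3C2 (-8.84) fell, against -9.46, -9.94 and -9.47 in KO. Over the DNA replication list the KO fall was more often the smaller one (13 of 28, against 3 larger). Of all genes, 7.6% had a higher change in KO than in WT and 10.9% a lower one. The KO change was also below the WT change for muscle-associated genes, with CHRNA1 at -7.73, KLHL40 at -8.54 and CAV3 at -4.66. So it was for TBC1D3G at -10.08, ADAMTS5 at -9.41 and LRRC53 at -8.74.

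The KO change lay below the WT change for cytoskeletal genes, with MAP1A and TUBA1A at -1.44 and NEFM at -1.99. So it did for the RNA-binding genes QKI (-1.25) and ELAVL2 (-2.58). These are not differences in level: NEFM averaged 390 and 2943 CPM in KO at days 3 and 7, against 28.5 and 856 in WT. QKI was lower in KO on both days (156 and 33.2 CPM against 288 and 146). Synaptic, channel and transmitter genes lay on both sides: GRIK1 at 6.01, NRXN3 at 2.69 and NLGN3 at 2.21, against CPLX1 at -2.65, SYT4 at -1.66, LRRTM3 at -2.67, CHRNA3 at -2.17, SLC6A3 at -4.60, SLC17A7 at -1.37, SCG2 at -1.80 and SST at -4.64. Among transcription and signalling genes the KO change was above the WT change for LMO3 (5.06) and HES3 (8.01). It was below for ONECUT3 (-3.25), ZBTB18 (-2.87), HEYL (-3.60), DLL3 (-1.52), DPPA4 (-2.67) and TRIM71 (-0.75). Again these are not differences in level. At days 3 and 7 ONECUT3 averaged 16.4 and 326 CPM in KO, against 0.198 and 36.9 in WT. ZBTB18 averaged 457 and 57.8 CPM in KO, against 339 and 314 in WT. Adhesion and guidance gave OPCML at 7.49, CNTN6 at -5.69 and ROBO1 at -1.78. ROBO1 was higher in KO on both days (931 and 1314 CPM against 156 and 754 in WT). So was SYT4 (92.7 and 789 CPM against 9.31 and 251). CPLX1 was higher in KO at day 3 and lower at day 7 (99 and 40.5 CPM against 29 and 74.5). The rest were SLC24A4 at 9.35, IRS4 at 8.68, OR5A1 at 8.27, SMARCD3 at 2.25, SMARCD2 at -1.27 and HMGCS1 at 1.17.

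One library lay far from the other 3 of its group in 13 of 155 groups checked, where chance alone gives about 7.75. At day 3 these were PENK replicate 4 (0.618 CPM), KLHL40 replicate 4 (15.4), NLGN3 replicate 4 (2.08), MAP1A replicate 2 (1660), CELF4 replicate 1 (8.55) and ADAMTS5 replicate 1 (28.4). At day 7 they were PIMREG replicate 1 (0.437), NTN1 replicate 1 (3.98), ADAMTS5 replicate 1 (2.59), LRRC53 replicate 1 (0.462), TBC1D3G replicate 3 (0.11), ONECUT3 replicate 4 (236) and DPPA4 replicate 4 (12.6).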

How the results depend on the processing

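The number of genes called in KO stayed within 1.5 times of 10555 except with log2(TPM + 1) (4496), log2(TPM + 0.1) (5466) and the fold threshold (3888). Leaving out 1 replicate gave 9258 to 10631. For KO against WT the exception was log2(TPM + 1) (942), and leaving out 1 replicate gave 3913 to 4764. For KO against HET, DESeq2 called 1083, log2(TPM + 1) 147 and the 16 libraries of days 3 and 7 alone 141; leaving out 1 replicate gave 267 to 900. Causes were not tested. Same-numbered KO libraries of days 3 and 7 deviated from their group means with correlations of 0.23, 0.10, -0.04 and 0.14, not all over 0.1. Between KO and WT all 4 were over 0.1 at day 3 (0.14, 0.55, 0.15 and 0.55) and 2 of 4 at day 7 (0.22, -0.04, 0.15 and -0.04). Between KO and HET 3 of 4 were over 0.1 at either day (-0.04, 0.63, 0.28 and 0.66 at day 3). Different numbers at day 3 gave -0.54 to 0.21 between KO and WT and -0.67 to 0.26 between KO and HET. The main tests did not take the numbers as pairs, and whether same-numbered libraries of different lines were handled together was not tested. With the replicate block 10379 genes were called in KO, 5041 against WT and 723 against HET.

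Some values changed sign. RAI1 gave -0.15, -0.10 (TPM, both pseudocounts) and -0.0950 (day 3 small structural RNA share under 10%) and SMARCA4 -0.18, -0.18 and -0.041 under the same settings; neither was called in the count test of the 12 KO libraries. List medians turned for proneural factors (-0.042 and -0.040 on TPM), sensory factors (-0.080 by library size, -0.088 and -0.43 on TPM, and -0.12 to 0.52 when 1 replicate was left out, lowest without day 7 replicate 3), BAF subunits (-0.20 and -0.20 on TPM, -0.015 with the share under 10%), glial markers (-0.015 and -0.17 on TPM, -0.14 to 0.37 when 1 replicate was left out, lowest without day 7 replicate 1, and -0.13 on 8 libraries) and pluripotency genes (0.27 with the covariate). Leaving out 1 replicate moved the day 7 minus day 3 difference in the small structural RNA share between -0.615 and 4.46 percentage points, in the mitochondrial share between 0.18 and 0.43, in the share of the top 100 genes between 1.23 and 6.31, and in genes at 1 CPM between -190.6 and 74.3. Over the alternatives for named genes 1737 checks kept direction and call, 53 lost the call, 8 gained one and 6 changed sign.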

Other observations

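Several families were counted by symbol after the results above were known, so the counts are descriptions, to be read beside the 24.3% of all genes tested that rose and the 23.6% that fell. Of 65 replication-dependent histone genes 45 fell and none rose (median log2 difference -2.61). Of 81 cytosolic ribosomal protein genes 24 fell and none rose (29.6%; median -0.67), while 201 of 492 ZNF zinc finger genes rose (40.9%) and 55 fell (median 0.30). Synaptotagmins rose in 14 of 16 cases. Kinesins divided, 15 rising and 16 falling of 36. Laminins fell in 7 of 11 cases and collagens in 18 of 40.

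Of 405 olfactory receptor genes in the files, 29 passed the expression filter, and 20 of these rose and 2 fell. A gene that is high at KO day 7 alone passes the filter through those libraries, so this count is favoured by the filter. Several are near-identical copies, so single counts are uncertain. OR2W3 went from 0.0615 ± 0.0569 to 4.07 ± 1.36 CPM and OR2L13 from 0.138 to 3.66, beside OR6K3 and OR5A1 above.

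Genes known from skeletal muscle were picked because CHRNA1, CAV3 and KLHL40 stood out. Of 27 listed, 22 passed the filter, and 19 of these fell and 1 rose in KO. The 3 genes that prompted the list are counted among them. A gene that is high at KO day 3 alone passes the filter through those libraries, so this count too is favoured by the filter. In WT 10 of these genes fell and 3 rose. ACTC1, the cardiac actin, went from 102 ± 57.5 to 1.17 ± 0.602 CPM in KO, and its change was 6.41 log2 units below that in WT. CHRND and CHRNG went from 15.4 to 0.873 and from 9.57 to 0.087 CPM, and MYOG, a muscle regulator, from 0.594 to 0.0574. At day 0 CHRNA1 was at 0.129 CPM and CHRND at 0.281.

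REST, the repressor of neuronal genes outside neurons, fell over the course from 128 CPM at day 0 to 15.7 at day 3 and 3.37 at day 7 in KO, a day 3 to day 7 log2 difference of -2.17, against -2.20 in WT (difference -0.03, adjusted p = 0.98). Its corepressor RCOR2 fell by 1.85 in KO and differed from WT by -1.90.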
